A study of Mus musculus with 16 samples.

Results

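The MS4A genes encode small membrane proteins, and 8 of them were followed in liver neutrophils with and without the receptor for interferon gamma (IFN-gamma). They were Ms4a3, Ms4a4a, Ms4a4b, Ms4a4c, Ms4a6b, Ms4a6c, Ms4a6d and Ms4a7, taken by symbol from a table of 54532 mouse gene identifiers. The Ifngr1_KO group held neutrophils lacking the IFN-gamma receptor chain Ifngr1 and carrying CD45.2, and the WT group held CD45.1 wild-type neutrophils. Both came from the same 8 mixed bone marrow chimeras, mice numbered 2 to 9, which gave 1 library of each genotype and 16 in all. The chimeras were irradiated wild-type hosts on a C57BL/6 background that had received equal parts of both marrows, about 1000 cGy and 8 weeks of recovery. Every mouse, in both groups, also carried MC38 cells, a mouse colon carcinoma line, as a flank tumour and had been given a CD40 agonist antibody 2 days before its liver was taken. No library came from an untreated or tumour-free mouse. The CD45 type of the host is not given in the sources used here, so remaining host cells could fall into either gate. Genotype cannot be told apart from the marrow donor, the CD45 type or the gate, which were tied to it in all 8 mice. The age of the mice is not given in the sources used here.

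MS4A proteins pass the membrane several times and sit in complexes with receptors, and the best known relatives are CD20 (Ms4a1) of B cells and the beta chain of the high-affinity IgE receptor (Ms4a2) of mast cells. Within the blood system the genes divide by cell type. Ms4a3 marks granulocyte and monocyte progenitors, Ms4a4b is a surface protein of T cells, Ms4a7 and Ms4a4a belong to macrophages, and the Ms4a6 genes are expressed in macrophages and other leukocytes. In mouse and human macrophages MS4A4A associates with the beta-glucan receptor dectin-1.

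A stretch shared by the promoters of Ms4a6b and Ms4a6c is shown because this pair had the largest count of transcript words in common among the members, described below. The promoters, each covering 250 bases before the start site and 50 after it, lie at chr19:11518309-11518608 for Ms4a6b and chr19:11469118-11469417 for Ms4a6c, both on the plus strand of GRCm38.p6 (mm10), from RefSeq. The longest run of identical bases in the pair held 48 bases, given 5′ to 3′.
Ms4a6b and Ms4a6c: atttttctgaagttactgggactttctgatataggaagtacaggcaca
Between the promoters of Ms4a4c and Ms4a4b, the longest such run held 20 bases. A promoter was in the RefSeq table for 7 of the 8 members. Shared letters are a description and say nothing of whether a factor binds there.

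The libraries held 12.5 to 21.7 M estimated counts. Ifngr1 itself was lower in Ifngr1_KO in 8 of 8 mice, at 83.9 ± 29.5 CPM in Ifngr1_KO and 305 ± 46.6 CPM in WT (SD, n = 8), where CPM is counts per 1 M counts, with library sizes scaled by the trimmed mean of M-values (TMM). Neutrophil genes were the most abundant of the marker lists, led by S100a8 at 18576 ± 11261 CPM in Ifngr1_KO and 13938 ± 3814 CPM in WT. Mitochondrial mRNAs took 1.39 ± 0.656% of Ifngr1_KO counts and 0.595 ± 0.272% of WT counts, higher in Ifngr1_KO in 6 of 8 mice. The Ifngr1_KO library of mouse 7 had the highest share, 2.50%, and the lowest total.

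All 8 members were low in these cells, and their signal was carried by Ms4a6b, Ms4a6c, Ms4a6d, Ms4a4c and Ms4a7, with mean levels of 2.10 to 5.76 CPM in Ifngr1_KO and 4.94 to 10.6 CPM in WT. Ms4a6b and Ms4a6d were lower in the Ifngr1_KO library of every mouse. In the test of single genes no member passed an adjusted p of 0.05, but the 3 Ms4a6 genes counted as 1 row did, with a fall of 1.22 on the log2 scale. The call of this sum was lost when mouse 3 or mouse 9 was left out. Ms4a4c and Ms4a6c had log2 fold changes close in size to their errors, and Ms4a3 and Ms4a4b were too low to be tested.

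Each gene was tested with edgeR's quasi-likelihood test with mouse as a block, adjusted over 9851 genes. Of these genes, 2.8% were called and 2.32% were called lower. Of the 8 members 6 were tested and none was called, while 2, Ms4a6b and Ms4a6d, had an unadjusted p under 0.05, as had 16.3% of all genes. DESeq2 called both of these lower (adjusted p = 0.00281 and 0.00111), beside 10.8% of all genes called and 5.81% called lower. Limma-voom called 1 lower, Ms4a6d (adjusted p = 0.0129), beside 6.06% called and 4.31% called lower. Without mouse 7 edgeR called 1 lower, Ms4a6d, beside 4.12% of 9997 genes called and 3.34% called lower. The tested members had a median log2 fold change of -0.89 and all genes one of 0.05. At levels as low as these, between 0.27 and 2.85 in mean log2 CPM, edgeR called 0.518% of 4051 genes, and the median SE of a log2 fold change was 0.67 against 0.24 for genes above that range. In RNA from sorted populations, fewer cells expressing a gene and less RNA per cell cannot be told apart.

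**Figure D1:**
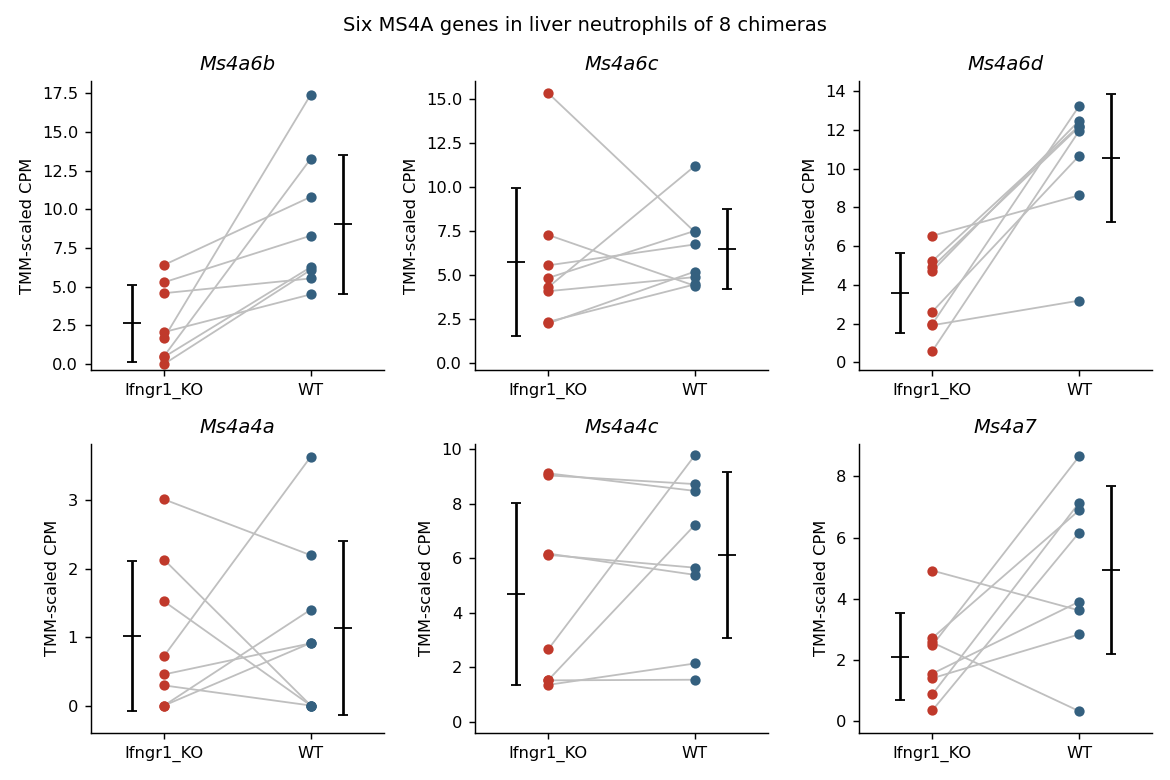
TMM-scaled CPM of the 6 tested MS4A genes, with Ifngr1_KO libraries on the left and WT on the right of each panel. Points are libraries, grey lines join the libraries of 1 mouse, and bars give the mean ± SD over 8 mice; every line of Ms4a6b and Ms4a6d runs upward to WT, while those of Ms4a4a, Ms4a4c, Ms4a6c and Ms4a7 run both ways.

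Ms4a6d, which in mouse macrophages is a partner of the complement receptor VSIG4, had the smallest p of the family. Its level was between 0.593 and 6.54 CPM in Ifngr1_KO, with a median of 3.68, and between 3.19 and 13.2 CPM in WT, with a median of 12.1. The gene (ENSMUSG00000024679, chromosome 19, 11586604 to 11604849, minus strand) was lower in Ifngr1_KO in 8 of 8 mice, as were 4.93% of all genes tested, and 4 Ifngr1_KO libraries lay below the lowest WT library. The groups overlapped only through the WT library of mouse 5, at 3.19 CPM, which was far below the other WT libraries. The log2 fold change was -1.69 (SE 0.43, edgeR adjusted p = 0.0706). Leaving out mouse 7, whose Ifngr1_KO library held the lowest value, gave -1.39 (adjusted p = 0.0478). Adding the share of mitochondrial mRNAs to the model gave -1.09 (adjusted p = 0.757).

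Ms4a6b, which shared more transcript words with Ms4a6c than any other member did, had the most negative log2 fold change of the tested members. Its level was between 0 and 6.40 CPM in Ifngr1_KO, with a median of 1.87, and between 4.50 and 17.4 CPM in WT, with a median of 7.28. The gene (ENSMUSG00000024677, 11516512 to 11531256, plus strand) had its 0 in the Ifngr1_KO library of mouse 9, against 97 counts in the WT library of that mouse. Ifngr1_KO was lower in 8 of 8 mice, and 5 Ifngr1_KO libraries lay below the lowest WT library, while the other 3 overlapped with WT. The log2 fold change was -2.42 (SE 0.81, edgeR adjusted p = 0.161), and within mice the log2 ratio of CPM plus 1 ran from -3.24 in mouse 4 to -0.23 in mouse 7. With the share of mitochondrial mRNAs in the model the log2 fold change of Ms4a6b was -3.34 (edgeR adjusted p = 0.446). Ms4a6b reached the level that the low-count filter asks for in 5 Ifngr1_KO and 8 WT libraries.

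Ms4a6c, the remaining Ms4a6 gene, was present in every library of both genotypes. Its level was between 2.26 and 15.3 CPM in Ifngr1_KO, with a median of 4.58, and between 4.39 and 11.2 CPM in WT, with a median of 5.98. The Ifngr1_KO value was the lower one in 6 of 8 mice, and the highest value of all came from the Ifngr1_KO library of mouse 7. The gene (ENSMUSG00000079419, 11469366 to 11482192, plus strand) had a log2 fold change of -0.37 (SE 0.35, edgeR adjusted p = 0.637), or -0.57 (adjusted p = 0.449) without mouse 7. With the share of mitochondrial mRNAs in the model it was -1.19 (adjusted p = 0.397), beside -1.09 for Ms4a6d.

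Reads can be divided among the Ms4a6 genes in more than 1 way, so their counts were also summed. Of the distinct 31-base words in their annotated transcripts, 14.2% of those of Ms4a6c, 7.71% of those of Ms4a6b and 5.10% of those of Ms4a6d also occurred in another member. The summed level was between 6.72 and 20.5 CPM in Ifngr1_KO, with a median of 10.1, and between 21.6 and 30.7 CPM in WT, with a median of 25.7. The groups did not overlap. Among single genes this was so for 1.65% of those tested, and 2.32% were called lower. Neither share was computed for sums of rows, which hold more counts than their single rows. The sum averaged 11.95 ± 5.06 CPM in Ifngr1_KO and 26.1 ± 3.38 CPM in WT (SD, n = 8) and fell by 1.22 on the log2 scale (SE 0.23, edgeR adjusted p = 0.0150). Its adjusted p was 0.0534 without mouse 3 and 0.0515 without mouse 9, at log2 fold changes of -1.21 and -1.16. It was 0.0114 without the mouse block. With the share of mitochondrial mRNAs in the model the sum had a log2 fold change of -1.67 (edgeR adjusted p = 0.0288).

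The make-up of this sum differed between the genotypes, in description only. Ms4a6c held 47.6 ± 20.9% of the Ms4a6 counts in Ifngr1_KO libraries and 24.6 ± 6.35% in WT libraries, a larger share in Ifngr1_KO in 8 of 8 mice. Ms4a6b held 18.1 ± 13.8% in Ifngr1_KO and 34.6 ± 17.3% in WT, with the larger share in Ifngr1_KO in 4 mice. Ms4a6d held 34.2 ± 20.3% in Ifngr1_KO and 40.8 ± 13.3% in WT. The plot of the stacked levels shows that the Ifngr1_KO library of mouse 7 was mostly Ms4a6c and the WT library of mouse 5 mostly Ms4a6b.

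**Figure D2:**
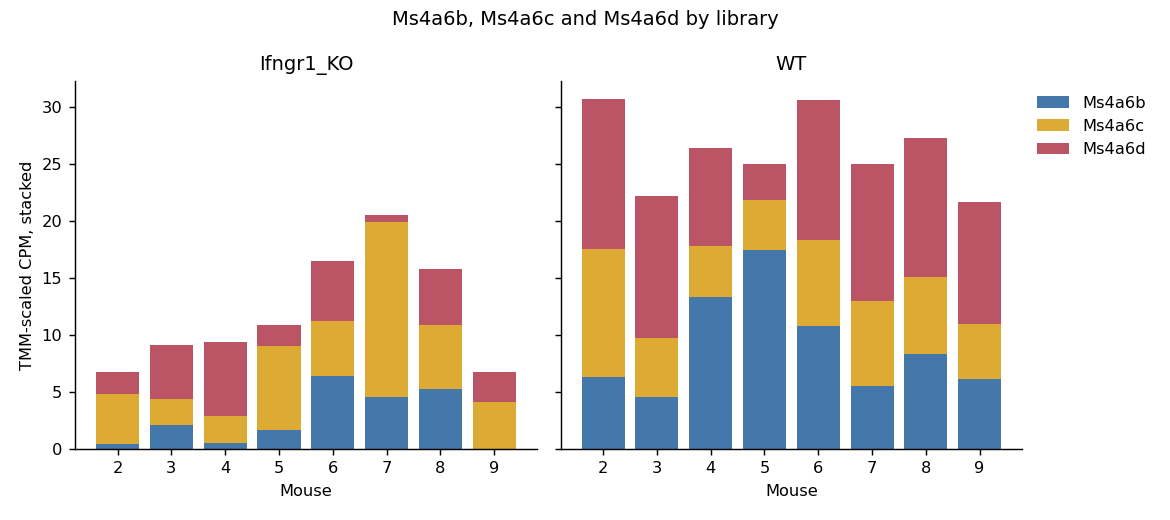
Stacked TMM-scaled CPM of Ms4a6b, Ms4a6c and Ms4a6d in each library, with the 8 Ifngr1_KO libraries on the left and the 8 WT libraries on the right, by mouse. The highest Ifngr1_KO column, 20.5 CPM in mouse 7, is below the lowest WT column, 21.6 CPM in mouse 9.

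Ms4a6c overlaps a transcript on the other strand, BE692007 (11470166 to 11484578), in whose transcripts 51.0% of the Ms4a6c words occur as their complement. Whether strand was used in counting is not given in the sources used here, so reads from the shared stretches were treated as inseparable. BE692007 held 104 counts in the Ifngr1_KO library of mouse 4 and 0 in the WT library of that mouse, and at most 12 in any other library. When its counts were added to Ms4a6c, a step chosen after seeing the data, the log2 fold change of Ms4a6c was -0.08 (adjusted p = 0.935) and that of the Ms4a6 sum -1.09 (adjusted p = 0.0248). No counts were found for the genes that overlap Ms4a4c and Ms4a6b, and the other members overlap no annotated gene.

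No Ms4a4 gene passed the test. Ms4a4c (ENSMUSG00000024675, 11404770 to 11427246, plus strand) was between 1.36 and 9.11 CPM in Ifngr1_KO, with a median of 4.39, and between 1.55 and 9.78 CPM in WT, with a median of 6.44, so the groups overlapped over nearly all of their range. It was lower in Ifngr1_KO in 4 mice and higher in 4, by more than 1 on the log2 scale only in mice 2 and 3, and its log2 fold change was -0.51 (SE 0.39, edgeR adjusted p = 0.549). Ms4a4a (ENSMUSG00000101389, 11375523 to 11392790, plus strand) was between 0 and 3.01 CPM in Ifngr1_KO and between 0 and 3.64 CPM in WT, with 0 counts in 2 Ifngr1_KO and 3 WT libraries. Its log2 fold change of -0.05 had an SE of 2.13 (adjusted p = 0.991), and its sign was positive with library totals in place of TMM (0.05), with DESeq2 (0.08) and with the share of mitochondrial mRNAs in the model (1.86).

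Ms4a4b did not pass the low-count filter. It had counts in 1 Ifngr1_KO library, 18 in mouse 6, and in 5 WT libraries, 12 to 32 each. The totals were 18 counts in Ifngr1_KO and 98 in WT. With no filter its log2 fold change was -4.64 and its edgeR p 0.0144, or 0.382 adjusted over 25008 genes, of which 0.908% were called. Of the words of Ms4a4c 13.0% also occur in Ms4a4b, and the pair summed was lower in Ifngr1_KO in 7 of 8 mice, with a log2 fold change of -0.62 (SE 0.38, edgeR adjusted p = 0.455). Markers of T and NK cells, in which Ms4a4b is usually found, summed to 8.72 to 34.4 CPM in Ifngr1_KO and 13.1 to 30.6 CPM in WT, and none of the 7 tested of 16 was called. The 7 tested had a median log2 fold change of 0.15. The sign was positive for Cd3d, Lck, Cd5, Nkg7 and Gzma and negative for Prf1 and Il2rb. Of the untested ones, Cd8a had 15 counts in Ifngr1_KO and 134 in WT, 68 of these in 1 library. Cd3e had 18 and 52, and Cd3g 15 and 38. Cd4, Cd8b1, Ncr1 and Skap1 also had fewer counts in Ifngr1_KO, while Cd2 and Klrd1 had more. The part of such cells in the Ms4a4b counts was not tested.

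Ms4a7, a macrophage gene, had 6 to 58 counts in Ifngr1_KO libraries and 6 to 138 in WT libraries. Its level was between 0.341 and 4.92 CPM in Ifngr1_KO, with a median of 2.01, and between 0.314 and 8.66 CPM in WT, with a median of 5.03. The gene (ENSMUSG00000024672, 11321039 to 11336146, minus strand) was lower in Ifngr1_KO in 6 of 8 mice, in mice 5 and 7 it was higher, and all Ifngr1_KO libraries lay within the WT range. The log2 fold change was -1.26 (SE 0.74, edgeR adjusted p = 0.429), or -2.62 (adjusted p = 0.471) with the share of mitochondrial mRNAs in the model. Ms4a3 (ENSMUSG00000024681, 11629496 to 11640851, minus strand) had 3 counts in 1 Ifngr1_KO library and 26 counts over 3 WT libraries, and was not tested.

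Whether the members differed from each other in fold was tested over the 8 mice for the 15 pairs of tested members, by exact two-sided sign-flip permutation of the difference between their within-mouse log2 ratios. For 5 pairs the unadjusted p was under 0.05, and none passed 0.05 after adjustment over the 15 pairs, where the smallest adjusted p was 0.0879. The pair with the smallest p was Ms4a6b and Ms4a6c, with mean log2 ratios of -1.68 ± 1.22 and -0.28 ± 0.74 (SD, n = 8). Their difference of -1.40 ± 1.30 was negative in 7 of 8 mice (exact p = 0.0156, adjusted p = 0.0879). Ms4a6c minus Ms4a6d was 1.13 ± 1.28 (exact p = 0.0234, adjusted p = 0.0879), positive in 7 of 8 mice. The smallest p that 8 mice allow is 0.00781, so a single pair at that p would not pass adjustment over 15 pairs.

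Per kilobase of exon, the order of the member means was not the same in the genotypes. In Ifngr1_KO the highest were Ms4a6c at 2.81 ± 2.05, Ms4a4c at 2.68 ± 1.90 and Ms4a6d at 2.06 ± 1.19 CPM per kilobase (SD, n = 8). This order did not hold library by library: Ms4a6c exceeded Ms4a4c in 3 of 8 Ifngr1_KO libraries, and Ms4a4c exceeded Ms4a6d in 4 of 8. In WT Ms4a6d came first at 6.09 ± 1.90, followed by Ms4a4c at 3.49 ± 1.73 and Ms4a6c at 3.17 ± 1.12 CPM per kilobase. Ms4a6d exceeded Ms4a4c in 8 of 8 WT libraries, and by more than the larger SD. Of the other neighbours in the WT order, Ms4a6c exceeded Ms4a6b in 6 of 8 libraries and Ms4a7 exceeded Ms4a3 in 8 of 8, both by more than the larger SD. For Ms4a6c and Ms4a6b the difference of 1.15 was below the SD of the within-library difference, 1.79. In Ifngr1_KO only Ms4a7 and its lower neighbour Ms4a4b differed by that much. Ms4a6b was at 0.585 ± 0.549 in Ifngr1_KO and 2.01 ± 1.00 CPM per kilobase in WT, and Ms4a7 at 0.472 ± 0.319 in Ifngr1_KO and 1.11 ± 0.616 in WT. Ms4a4a, with the shortest exon length, was at 1.22 ± 1.32 in Ifngr1_KO and 1.35 ± 1.53 in WT, and Ms4a3 and Ms4a4b were below 0.12 in both. These levels depend on the length used, which for Ms4a4b is 8780 bases over all exons and 4750 bases in its longest transcript.

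**Figure D3:**
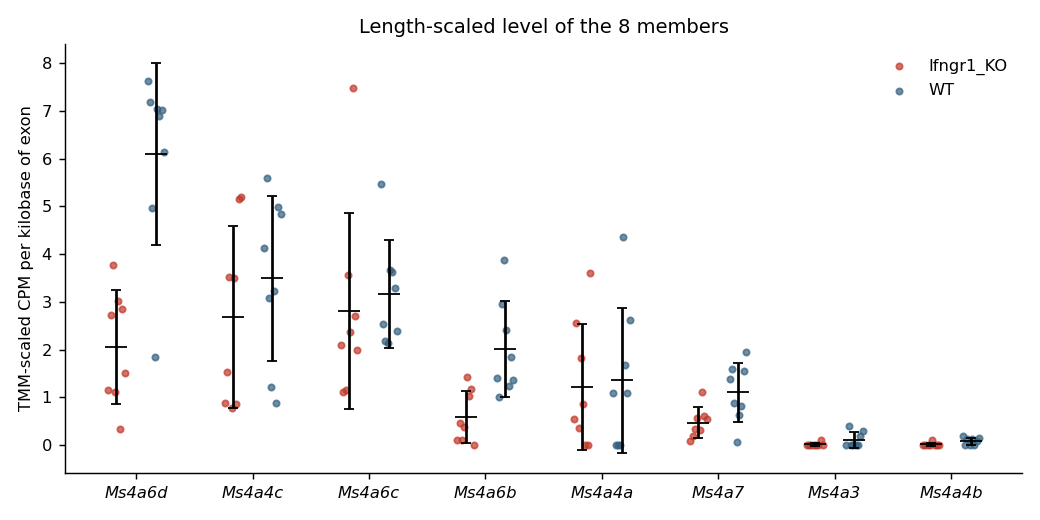
TMM-scaled CPM per kilobase of exon for the 8 members, ordered by their WT mean, with Ifngr1_KO left of WT for each gene. Points are libraries and bars the mean ± SD over 8 mice; Ms4a6d is at 2.06 in Ifngr1_KO, below Ms4a6c and Ms4a4c, and leads in WT at 6.09.

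Most other MS4A genes had no counts. There were 11 further family members in the data, and 7 of them had 0 counts in all 16 libraries, among them Ms4a2. Ms4a1 was the only one tested, at 2.28 ± 1.02 CPM in Ifngr1_KO and 1.496 ± 0.666 CPM in WT (log2 fold change 0.64, SE 0.46, edgeR adjusted p = 0.528). Ms4a8a, singled out after its values were seen, had 118 of its 138 Ifngr1_KO counts in the library of mouse 7 and 33 counts over all WT libraries. The related tetraspan genes Tmem176a and Tmem176b, which are active in myeloid cells, had log2 fold changes of -0.06 and -0.62 (SE 0.27 and 0.32, adjusted p = 0.934 and 0.366).

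Genes reported to work with MS4A proteins were tested for 5 of 8. Clec7a, which encodes dectin-1, was called lower, at 272 ± 65.6 CPM in Ifngr1_KO and 427 ± 108 CPM in WT (log2 fold change -0.66, SE 0.14, edgeR adjusted p = 0.0271). Csf2rb, the shared beta chain of the GM-CSF receptor, had -0.46 (0.489), the GITR gene Tnfrsf18 -0.39 (0.501), Fcer1g, the common Fc receptor gamma chain, 0.11 (0.782), and the stem cell factor receptor Kit -1.22 (0.596), each with its adjusted p in parentheses. Vsig4, the reported partner of Ms4a6d, had 0 counts in all libraries. Trem2 and Cdkn3 were too low to be tested.

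The MS4A genes form a cluster on chromosome 19, from Ms4a10 to Ms4a3 (10962293 to 11640851). Within it and 500000 bases on each side 27 genes were tested, and 1 was called, against 2.8% of all genes. This was AW112010, an interferon-induced transcript annotated as a long intergenic noncoding RNA (11047612 to 11055808), at 23.5 ± 8.84 CPM in Ifngr1_KO and 264 ± 61.7 CPM in WT. Its log2 fold change was -3.56 (SE 0.24, edgeR adjusted p = 1.1e-05). The 3 most abundant of the others were Slc15a3, a lysosomal peptide transporter, Vps37c, a subunit of the endosomal sorting machinery, and Cyb561a3, a cytochrome of the lysosomal membrane. Their log2 fold changes were -0.21, -0.24 and -0.30, with adjusted p of 0.448, 0.623 and 0.215. Of the 7 tested MS4A genes of the cluster Ms4a1 had a positive log2 fold change and the other 6 a negative one. For Ms4a4a, at -0.05 with an SE of 2.13, the sign was positive in 7 of 16 alternative settings. A negative sign was found for 46.8% of all genes tested.

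**Figure D4:**
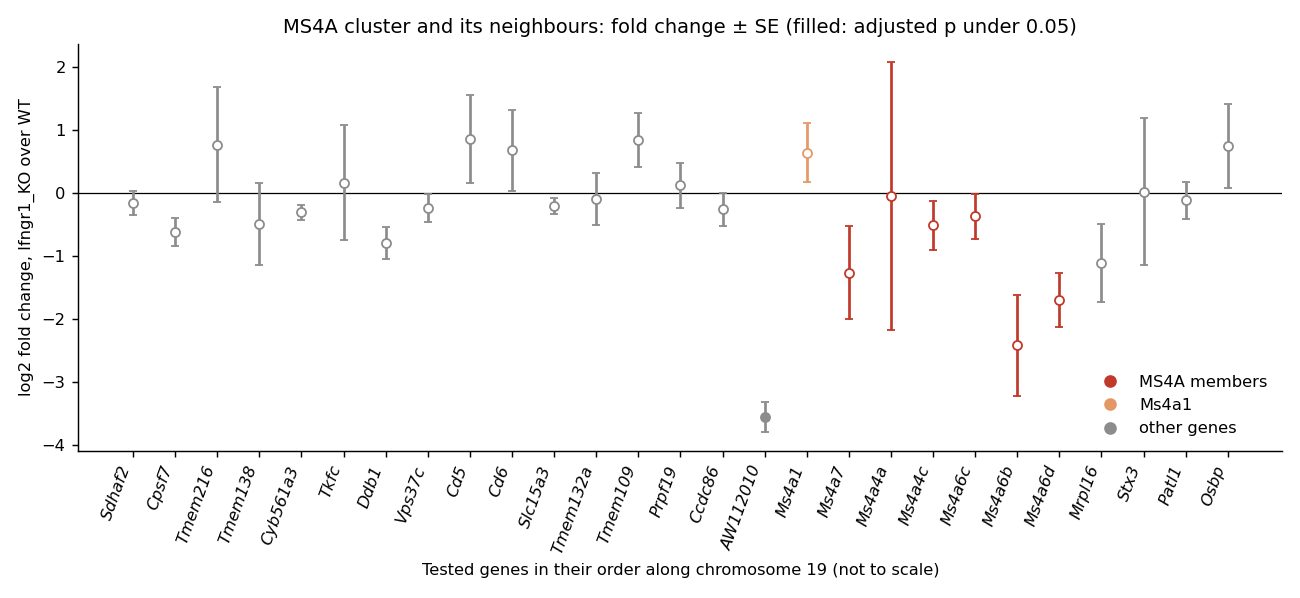
Log2 fold change, Ifngr1_KO over WT, with SE, of the 27 genes tested in and around the MS4A cluster, in chromosomal order and not to scale. Filled points passed an adjusted p of 0.05; only AW112010, at -3.56, did.

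The genes whose levels over the 16 libraries were most like those of a member were found by the root mean square difference of log2 CPM after centring each gene on its own mean, among the 4883 genes whose mean log2 CPM reached 3. For Ms4a6d these were Gbp7, a guanylate-binding protein (0.58), Tifa, an adaptor of TRAF signalling (0.58), and Plekhn1 (0.60), against a spread of 1.19 of Ms4a6d about its own mean. Gbp7 and Tifa were called lower in Ifngr1_KO, at log2 fold changes of -1.85 and -1.74 (edgeR adjusted p = 3.9e-04 and 3.6e-05). Plekhn1 had a log2 fold change of -1.45 (adjusted p = 0.126). For Ms4a6b the nearest were Pla2g16, Phf11b and Parp3, at 1.32, 1.32 and 1.33, against a spread of 1.83 of Ms4a6b itself. For Ms4a7 they were Gfpt1 (0.78), Fam174a (0.82) and Zfp429 (0.94), against 1.28. All 16 libraries share their genotype difference and scaling, so this is a description.

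Markers of monocytes and macrophages, which also express several MS4A genes, were compared beside these results. Their 16 genes summed to 1518 to 2699 CPM in Ifngr1_KO and 2275 to 3569 CPM in WT, lower in Ifngr1_KO in 8 of 8 mice. The granulocyte precursor and B cell sums, given below, were also lower in 8 of 8 mice. Most of the monocyte and macrophage sum came from Csf1r and Ly6c2. Of its 11 tested genes 2 were called lower, Ly6c2 and Adgre1, beside 2.32% of all genes. Adgre1 was at 36.0 ± 14.5 CPM in Ifngr1_KO and 76.5 ± 25.8 CPM in WT (SD, n = 8), lower in 8 of 8 mice. Its log2 fold change was -1.11 (SE 0.19, edgeR adjusted p = 0.0108). Of the Kupffer cell markers, Vsig4 had 0 counts in all libraries, and Clec4f had 0 counts in Ifngr1_KO and 10 counts in 1 WT library. Other macrophage markers of the list were present at low counts, with 244 counts of Cd5l in Ifngr1_KO and 208 in WT, and 102 of Marco in Ifngr1_KO and 50 in WT. Timd4 had 18 counts in 1 Ifngr1_KO library and 3 in 1 WT library. Of Cd5l, Marco and Timd4 only Cd5l was tested, with a log2 fold change of 0.04 (SE 1.39, edgeR adjusted p = 0.991). The complement genes C1qa, C1qb and C1qc had log2 fold changes of -0.17, -0.08 and -0.17, with adjusted p of 0.820, 0.895 and 0.839. The part of such cells in the Ms4a6 and Ms4a7 results was not tested.

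Markers of granulocyte precursors, led by Ngp and Ltf, summed to 1065 to 5049 CPM in Ifngr1_KO and 1687 to 7482 CPM in WT. This sum was lower in Ifngr1_KO in 8 of 8 mice, and 2 of 7 tested genes were called lower, beside 2.32% of all genes. The progenitor genes Elane and Prtn3 had log2 fold changes of 2.22 and 1.53 (edgeR adjusted p = 0.142 and 0.339). Elane was higher in Ifngr1_KO in 8 of 8 mice and Prtn3 in 7 of 8. The groups did not overlap for Elane, as for 1.65% of all genes tested. Cebpe, Camp, Ltf, Ngp and Mki67 had negative log2 fold changes. The untested Mpo, Ctsg, Fcnb and Top2a had 150, 46, 70 and 174 counts in Ifngr1_KO and 46, 13, 41 and 153 in WT. Of the Mpo counts, 91 were in 1 Ifngr1_KO library. B cell markers, led by Ighm and Cd79a, summed to 61.3 to 84.0 CPM in Ifngr1_KO and 152 to 281 CPM in WT. They were lower as a sum in Ifngr1_KO in 8 of 8 mice, with Ighm alone called lower of 5 tested. Of the neutrophil markers, led by S100a8 and S100a9, 1 of 10 was called lower. Their sum was lower in Ifngr1_KO in 6 of 8 mice, with means of 52539 ± 18310 CPM in Ifngr1_KO and 50881 ± 8690 CPM in WT. The hepatocyte sum was lower in Ifngr1_KO in 7 of 8 mice, as was Trf, its most abundant gene. The 8 hepatocyte genes had a median log2 fold change of 0.07. None was called among 1 tested mast cell and basophil gene, Kit, 3 eosinophil genes led by Siglecf and Ear2, and 8 hepatocyte genes led by Trf and Apoa1. No dendritic cell marker was tested, and their sum was at most 11.02 CPM, led by Zbtb46. Markers of T and NK cells were led by Nkg7 and Cd3d.

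**Figure D5:**
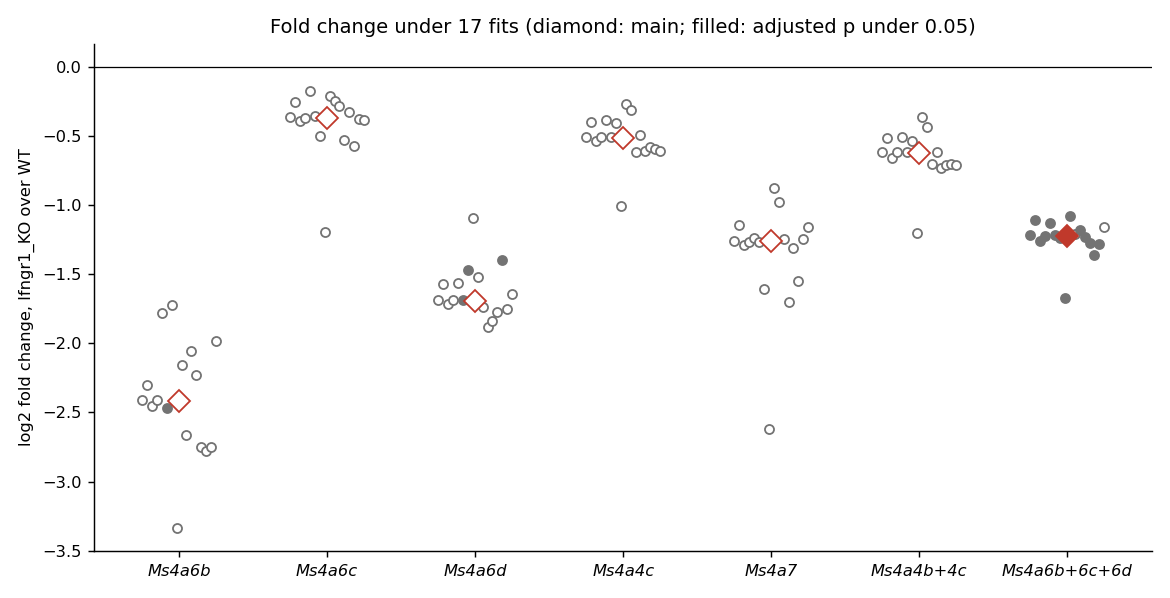
Log2 fold change, Ifngr1_KO over WT, of 5 members and of the 2 summed rows under the main fit (diamond) and its 16 alternatives (circles). Filled symbols passed an adjusted p of 0.05; the Ms4a6 sum stayed between -1.67 and -1.08 and was not called in 2 fits, those without mouse 3 and without mouse 9.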

How the data were processed

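RNA of sorted liver neutrophils was measured in 16 libraries, made from 1 ng of RNA with 13 cycles of PCR, per the labels' protocols. The authors deposited estimated counts per Ensembl gene as whole numbers that are not scaled to library size. The tools named are Salmon 0.14.2 and DESeq2 1.22.1, with build mm10, per the submitters' processing notes. For the annotation, any filter and the use made of DESeq2, details were not given in the sources used here. Such libraries usually do not mark strand and carry no molecular identifiers, so counts were taken to include PCR copies. Names, positions and lengths came from a GENCODE annotation of mm10, in which 37 identifiers had no name.

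The analysis used edgeR 4.0.16 under R 4.3.3: filterByExpr by group (0.705 CPM in at least 8 libraries), which kept 9851 genes, TMM scaling, and the robust quasi-likelihood test with mouse as a block, with Benjamini-Hochberg adjustment over all genes tested and a threshold of 0.05. A positive log2 fold change means a higher level in Ifngr1_KO. Its SE was taken as its size over the root of the F statistic. The pairing comes from the series' design text; deviations from the group means of the libraries of 1 mouse correlated at 0.138 on average across genes (0.0246 to 0.314), against -0.0180 between mice. Ms4a6d had 7 to 94 counts per Ifngr1_KO library and Ms4a6c, the member with the most, 32 to 181.

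Alternatives were other scaling, filters and covariates, no block, DESeq2 1.42.0, limma-voom (limma 3.58.1), each mouse left out, and, chosen after seeing the data, counts of BE692007 added. The scripts were tested on simulated data. Named genes were Ifngr1, all members, MS4A genes of at least 1 CPM, TMEM176 genes and listed partners where tested, called genes of the cluster window and the 3 most abundant others, the 3 genes most like each of the 3 members with the smallest p, and the 2 most abundant genes of each marker list. Ms4a8a, BE692007, Adgre1, C1qa, C1qb, C1qc, Clec4f, Vsig4 as a marker, Cd5l, Marco, Timd4, Elane and Prtn3 fall outside that rule and were chosen after their values were seen. The same holds for the other T and NK cell and granulocyte precursor markers named. Members, lists and tests were chosen with earlier results of these data known. No sample was left out. Searches of the promoters for sequence motifs are not reported here.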

Additional observations from a re-analysis of the deposited data

Results flagged for a closer look

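In 22 sets of 8 libraries or ratios, the lowest or highest value was compared with the rest of its set on the scale of log2 of CPM plus 1, a check that chance alone flags in about 1 set in 20. The WT library of mouse 5 stood apart in both sets it marked. It held 3.19 CPM of Ms4a6d, where the other WT libraries held 8.63 to 13.2 CPM, and 0.314 CPM of Ms4a7, where the others held 2.83 to 8.66 CPM. In the same library Ms4a6b was at 17.4 CPM, the highest value of that gene. Without mouse 5 the log2 fold change, Ifngr1_KO over WT, was -1.84 for Ms4a6d (edgeR adjusted p = 0.0880) and -1.70 for Ms4a7 (adjusted p = 0.197).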

How the results depend on the processing

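The direction of the log2 fold change of Ms4a4c, Ms4a6b, Ms4a6c, Ms4a6d, Ms4a7 and both sums was the same in every alternative run. The call of the Ms4a6 sum was lost without mouse 3 or 9, and its log2 fold change ran from -1.36 to -1.08 with 1 mouse left out. Members called lower numbered 2 with DESeq2, 1 with limma-voom, 0 or 1 with 1 mouse left out, and 0 in the other alternatives. The log2 fold change of Ms4a4a changed sign with library totals (0.051), DESeq2 (0.084) and the mitochondrial covariate (1.86), and ran from -0.83 to 0.75 with 1 mouse left out; the cause was not tested. Of 276 genes called in all, the count was 1060 with DESeq2, 597 with limma-voom, 93 with the mitochondrial covariate and 163 to 412 with 1 mouse left out, the lowest without mouse 3 and the highest without mouse 7; the cause was not tested, though with 1 mouse out fewer samples are fitted. With library totals the median over all genes was 0.16 on the log2 scale, against 0.05 with TMM, with 164 genes lower and 102 higher against 229 and 47. Without the replicate block 268 genes were called, 215 of them shared, the Ms4a6 sum had -1.13, and it changed no call of a member. Pairs of members were not read for stability, since with 1 mouse left out the smallest possible p was 0.0156. Depth limits the members through their counts, 7 to 94 per Ifngr1_KO library for Ms4a6d.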
